A study of Mus musculus with 6 samples.

Results

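The CCAAT/enhancer-binding proteins are bZIP transcription factors that bind DNA as dimers through a basic region and a leucine zipper. The genes Cebpa, Cebpb, Cebpd and Cebpg, chosen by name, are the 4 members described here, out of 55357 genes in the count table. In the liver, C/EBPα is known as a keeper of the differentiated, metabolic state of hepatocytes. C/EBPβ and C/EBPδ are known as factors that are induced in the acute phase response, by hormones and by stress, and C/EBPγ is a short member without an activation domain of its own that dimerizes with other bZIP factors such as ATF4. The balance of C/EBPβ and C/EBPα is often discussed because both recognise the same DNA element, so the ratio of their transcripts was also compared.

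Liver RNA came from WT male C57BL6/J mice, 8-9 weeks old, that received vehicle (2.5% Tween-80) or esculetin, a coumarin compound, by oral gavage for 7 days. All mice ate a control diet with 10% of kcal from fat for 4 days and then a high-fat diet with 60% of kcal from fat for 3 days, so the vehicle group was fed the high-fat diet too. There were 3 vehicle and 3 esculetin libraries, each made from the livers of 2 mice, and p-values therefore describe the spread between pools. The esculetin libraries carry 180 mg/kg/d in their titles and 90 mg/kg/d in their treatment field, so the group is named here without a dose. The columns of the count table were assigned to the groups by their names alone, no value in the table checks that assignment independently, and every direction given here rests on it.

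Libraries held from 27957713 to 31889710 counts with vehicle and from 32883985 to 34920922 with esculetin, so depth and treatment moved together, and the part of depth was not tested. After scaling with edgeR's TMM factors, 14433 genes were tested with edgeR's quasi-likelihood test. A gene was called when the unadjusted p-value was under 0.05 and the fold change over 1.5, the thresholds of the study. By this rule 1.37% of all genes tested were called higher with esculetin and 1.76% lower, 3.13% in all. An unadjusted p-value under 0.05 alone was reached upwards by 6.53% and downwards by 5.32%. The median log2 fold change of all genes tested was -0.0080. The 10 hepatocyte markers, among them albumin and transthyretin, summed to between 101000 and 107000 CPM (counts scaled to library size) in the vehicle libraries and to between 95900 and 106000 CPM in the esculetin libraries, and 0 of them were called.

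All 4 C/EBP genes passed the low-count filter, and 2 of the 4, Cebpb and Cebpd, were called higher with esculetin, where the background of such calls is 1.37%. The other two, Cebpa and Cebpg, were not called. Among the transcripts of these genes Cebpa was the most abundant in every library, at 346 ± 23.6 TPM (mean ± SD, n = 3; counts per length of all exons joined, scaled to the same sum in each library) in the vehicle group and 338 ± 44.4 TPM in the esculetin group. Cebpb followed with 67.7 ± 12.1 TPM in the vehicle and 100 ± 13.0 TPM in the esculetin libraries. Cebpg had 52.1 ± 3.57 TPM with vehicle and 47.2 ± 9.40 TPM with esculetin. Cebpd was the least abundant, with 2.97 ± 0.407 and 4.48 ± 1.53 TPM. Cebpb and Cebpg were the closest neighbours in this order, and in vehicle replicate 1 they had 57.0 and 55.1 TPM. Cebpb was above Cebpg in 6 of 6 libraries on this scale, and in 5 of 6 when the longest annotated transcript (4843 bases for Cebpg) was used in place of all 5634 exon bases, an alternative chosen after the data were seen.

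Cebpb encodes C/EBPβ, which is translated from a single mRNA into longer activating and shorter inhibitory proteins that RNA counts cannot separate. The gene lies on the plus strand of chromosome 2 of GRCm39 from 167530835 to 167532338, and its annotated transcript has 1 exon of 1504 bases with a coding length of 888 bases. The vehicle libraries had 24.9, 35.6 and 30.2 CPM of Cebpb and the esculetin libraries had 53.7, 43.4 and 40.3 CPM. Every esculetin library was thus above every vehicle library, a separation in this direction that 9.2% of all genes tested also had (8.24% were separated in the other direction), and esculetin replicate 1 was the highest. The log2 fold change of Cebpb was 0.60 (standard error 0.14, 95% interval 0.27 to 0.92), a 1.51-fold rise just past the fold threshold. In edgeR's quasi-likelihood test the unadjusted p-value was 0.00211, and the Benjamini-Hochberg adjusted p-value over all genes tested was 0.175, so Cebpb did not pass the adjustment. In 0.0416% of all genes tested the adjusted p-value was under 0.05. The unadjusted p-value of Cebpb stayed under 0.05 in each of the 14 alternative fits, but the fold change did not always stay over 1.5. Without vehicle replicate 1 the log2 fold change was 0.47 (unadjusted p = 0.00751), and without esculetin replicate 1 it was also 0.47 (unadjusted p = 0.00885). In bulk liver RNA, a change in the number of cells that carry a transcript and a change in its amount per cell cannot be told apart.

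**Figure D1:**
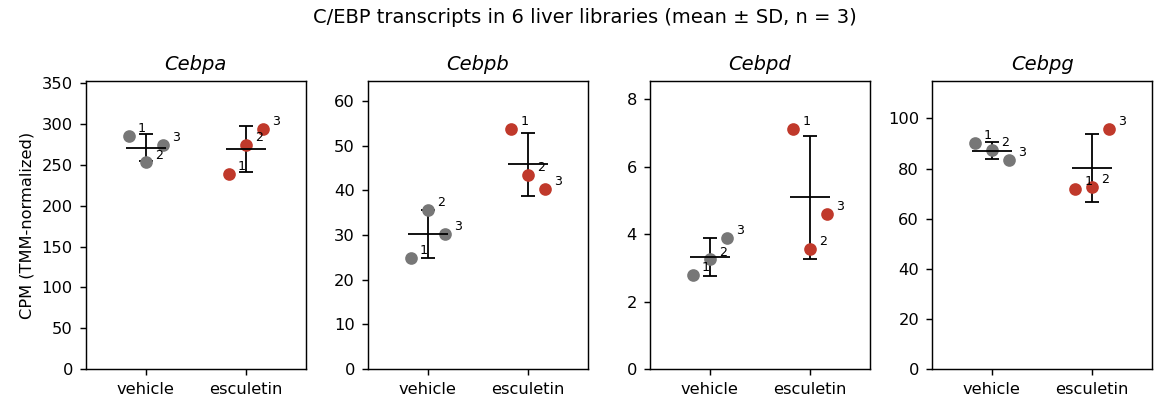
CPM of each C/EBP gene (vertical axis from 0, TMM-normalized) in the vehicle (grey) and esculetin (red) libraries, with replicate numbers beside the points and bars for the mean ± SD of 3 libraries. The groups are apart only for Cebpb, with 24.9 to 35.6 CPM against 40.3 to 53.7 CPM, and esculetin replicate 1 is the highest library for both Cebpb and Cebpd.

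The upstream sequence of Cebpb is shown because Cebpb had the separated groups, with those of Cebpa and Cebpg for contrast. The sequences are 250 bases upstream of the RefSeq start in build GRCm38.p6, from chr2:167688665-167688914 (plus strand) for Cebpb, chr7:35119043-35119292 (plus strand) for Cebpa and chr7:35056567-35056816 (minus strand) for Cebpg. Capitals mark 3 motifs, searched on both strands. In Cebpb they are TGACG, the core of the cAMP response element to which bZIP factors can bind, or its reverse complement. In Cebpg they are the reverse complement of the CCAAT box, and in Cebpa they mark TATAAA, the core promoter motif bound by TBP. No entry was held for Cebpd.
Cebpb: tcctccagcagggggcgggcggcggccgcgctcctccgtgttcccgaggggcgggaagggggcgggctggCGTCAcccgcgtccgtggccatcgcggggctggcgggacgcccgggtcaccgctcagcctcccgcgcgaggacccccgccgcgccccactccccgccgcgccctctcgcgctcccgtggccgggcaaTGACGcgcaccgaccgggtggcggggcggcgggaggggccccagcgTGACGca
Cebpa: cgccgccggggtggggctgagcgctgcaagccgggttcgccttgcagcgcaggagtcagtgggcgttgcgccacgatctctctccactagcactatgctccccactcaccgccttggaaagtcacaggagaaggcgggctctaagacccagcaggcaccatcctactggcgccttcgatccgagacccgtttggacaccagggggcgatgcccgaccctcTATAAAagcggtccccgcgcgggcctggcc
Cebpg: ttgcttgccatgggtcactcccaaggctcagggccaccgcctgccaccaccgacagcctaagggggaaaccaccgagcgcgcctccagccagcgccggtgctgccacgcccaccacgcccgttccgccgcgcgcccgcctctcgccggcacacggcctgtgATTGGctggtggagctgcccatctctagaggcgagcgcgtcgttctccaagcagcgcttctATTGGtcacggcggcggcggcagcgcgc

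In the Cebpb window TGACG occurred 3 times on either strand, at positions -180, -53 and -7 counted from the RefSeq start, while the windows of Cebpa and Cebpg held 0 matches. Of 32851 RefSeq promoter windows of 300 bases (250 upstream and 50 downstream), 20.8% held this core at least 1 time. The printed bases were 81.6% G or C for Cebpb, 66.4% for Cebpa and 70.8% for Cebpg, and the part of this in the matches was not tested. The Cebpg window held the CCAAT box at positions -89 and -28, a motif present in 37.4% of all windows. TATAAA was found at position -30 in Cebpa and at position 22, inside the downstream part that is not printed, in Cebpb, and in 13.6% of all windows. The full palindromes TGACGTCA (1.79% of windows) and TTGCGCAA (the C/EBP palindrome, 0.183%), the STAT pattern TTCNNNGAA (8.30%) and the amino acid response pattern TGATGNAA (3.97%) were searched on both strands and matched none of these 3 windows. A match describes letters in the window and not a bound site.

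Cebpd encodes C/EBPδ, which rises early in the acute phase response. It lies on the plus strand of chromosome 16 from 15705150 to 15708895, with 2 annotated transcripts and a coding length of 804 bases. Cebpd was measured on few reads, between 82 and 107 counts in the vehicle and between 124 and 229 counts in the esculetin libraries. These correspond to 2.79, 3.25 and 3.90 CPM with vehicle and to 7.12, 3.57 and 4.60 CPM with esculetin. The groups overlapped, since esculetin replicate 2 was below vehicle replicate 3, and esculetin replicate 1 stood above the rest. The log2 fold change was 0.62 (standard error 0.26 and 95% interval 0.04 to 1.2). In edgeR's quasi-likelihood test the unadjusted p-value was 0.0395, and the adjusted p-value was 0.393. The call rested on single libraries. Without esculetin replicate 1 the log2 fold change fell to 0.30 (unadjusted p = 0.213), without vehicle replicate 1 to 0.51 (unadjusted p = 0.114), and without vehicle replicate 2 it was 0.61 (unadjusted p = 0.0864). With limma-voom, from the package named in the methods of the study, it was 0.57 (unadjusted p = 0.0662), and with the replicate block it was also 0.57 (unadjusted p = 0.0613).

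Exons of these genes overlap those of neighbours. In the annotation, Cebpb shares 312 exon bases with Peds1 and Cebpd shares 563 exon bases with Spidr, both on the opposite strand, and whether the counting used strand is not given. Peds1, a plasmanylethanolamine desaturase, had 6.01 ± 1.94 CPM with vehicle and 7.77 ± 0.666 CPM with esculetin (log2 fold change 0.37, unadjusted p = 0.120). Spidr, a scaffold protein of DNA repair, had 3.68 ± 0.271 and 2.98 ± 0.512 CPM (log2 fold change -0.30, unadjusted p = 0.152, edgeR's quasi-likelihood test). Neither was called, and whether reads from the overlaps entered the values of Cebpb and Cebpd was not tested.

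Cebpa encodes C/EBPα. It lies on the plus strand of chromosome 7 from 34818718 to 34821353, with a coding length of 1077 bases. The vehicle libraries had 286, 253 and 275 CPM and the esculetin libraries 239, 275 and 294 CPM. The groups overlapped over nearly their whole range. The log2 fold change was -0.01 with a 95% interval from -0.22 to 0.20 (unadjusted p = 0.929, edgeR's quasi-likelihood test), an interval that leaves out changes of 1.5-fold in either direction. Esculetin replicate 1, in which Cebpb was highest, had the lowest Cebpa of all 6 libraries.

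Cebpg, which encodes C/EBPγ, lies on the minus strand of the same chromosome from 34745847 to 34756011, with 7 annotated transcripts and a coding length of 450 bases. It had 90.2, 87.5 and 83.6 CPM in the vehicle libraries and 71.9, 72.8 and 95.8 CPM in the esculetin libraries. Esculetin replicates 1 and 2 were below every vehicle library and replicate 3 was above all of them. The log2 fold change was -0.12 (95% interval -0.37 to 0.13, unadjusted p = 0.310, edgeR's quasi-likelihood test). Without esculetin replicate 3 it was -0.27 with an unadjusted p-value of 0.00957, still less than a 1.5-fold change.

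**Figure D2:**
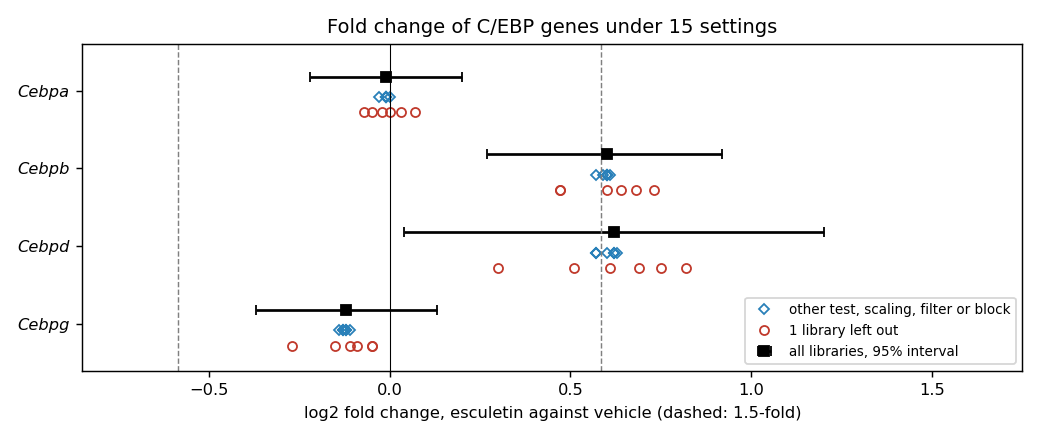
Log2 fold change of each C/EBP gene (horizontal axis, esculetin against vehicle) with all libraries and its 95% interval (black squares), with another test, scaling, filter or block (blue diamonds) and with 1 library left out (red circles). Dashed lines mark a 1.5-fold change, which Cebpb and Cebpd straddle when 1 library is left out, with ranges of 0.47 to 0.73 and 0.30 to 0.82, while Cebpa stays between -0.07 and 0.07.

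The ratio of Cebpb to Cebpa was taken within each library from reads per kilobase of exon, so that it does not depend on library size. It was 0.153, 0.247 and 0.193 in the vehicle libraries and 0.394, 0.276 and 0.240 in the esculetin libraries. The groups overlapped, because vehicle replicate 2 lay above esculetin replicate 3. On the log2 scale the mean ratio was -2.37 ± 0.34 in the vehicle group and -1.75 ± 0.37 in the esculetin group (SD, n = 3), a difference of 0.61 or 1.53-fold. The exact two-sided permutation test gave p = 0.2, where 3 against 3 libraries cannot go below 0.1, and adjustment over the 4 ratios compared gave 0.4. When the log2 ratio of every gene to Cebpa was tested across all genes with limma, the difference for Cebpb had an unadjusted p-value of 0.0437 and an adjusted p-value of 0.768. The difference lay between 0.41 and 0.79 with 1 library left out. It was smallest without esculetin replicate 1.

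The remaining ratios were not separated between the groups either. The ratio of Cebpd to Cebpa had a log2 difference of 0.59 (exact permutation p = 0.2, adjusted 0.4), which fell to 0.23 without esculetin replicate 1. The ratio of Cebpg to Cebpa had a log2 difference of -0.12 (exact permutation p = 0.4, adjusted 0.533). That of Cebpd to Cebpb had a log2 difference of -0.03 (exact permutation p = 1), with 0.0445 ± 0.00759 in the vehicle and 0.0440 ± 0.0102 in the esculetin libraries. As a share of all C/EBP transcripts of the 4 genes per kilobase, Cebpb made up 11.7%, 17.4% and 14.3% in the vehicle libraries and 25.3%, 19.6% and 17.1% in the esculetin libraries. Cebpa made up between 70.5% and 76.5% with vehicle and between 64.3% and 71.3% with esculetin.

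**Figure D3:**
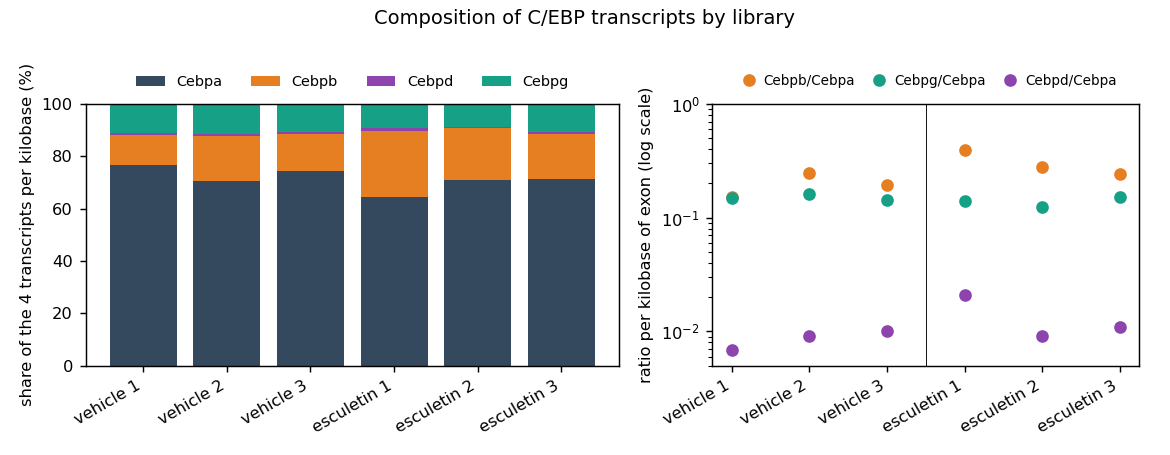
Left, the share (%) of each C/EBP gene in the summed transcripts per kilobase of the 4 genes, by library. Right, ratios to Cebpa per kilobase of exon on a log axis, where Cebpb/Cebpa spans 0.153 to 0.247 in the vehicle and 0.240 to 0.394 in the esculetin libraries, so the groups meet.

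Among the relatives of the 4 genes, Cebpe, a factor known from granulocytes, was called higher. It had 1.74, 3.62 and 2.84 CPM with vehicle and 4.85, 3.89 and 4.57 CPM with esculetin, so the groups did not overlap, as in 9.2% of all genes tested in this direction. By edgeR the log2 fold change of Cebpe was 0.69 ± 0.26 (standard error). Its unadjusted p-value was 0.0224 and its adjusted p-value 0.337. The call was lost without vehicle replicate 1 (0.45), without esculetin replicate 1 (0.63) and without esculetin replicate 3 (0.67). Of 13 neutrophil and granulocyte markers, 4 had enough counts to be tested. Of these 1, S100a9, was called higher (1.37% of all genes tested were), from 0.813 ± 0.373 to 1.61 ± 0.724 CPM (log2 fold change 0.99). That call was lost with limma-voom (0.98) and without vehicle replicate 1 (0.86), vehicle replicate 2 (0.78), esculetin replicate 1 (0.58) or esculetin replicate 3 (1.10). Of the other tested markers, S100a8 had a log2 fold change of 0.29 and Mmp9 of -0.17. Csf3r, the receptor of the granulocyte growth factor, had -0.39 (unadjusted p = 0.150 by edgeR). Every esculetin library was below every vehicle library for Csf3r, as in 8.24% of all genes tested. The markers summed to between 3.64 and 5.94 CPM in the vehicle and to between 3.29 and 7.31 CPM in the esculetin libraries, and Ly6g and Mpo had 0 counts in every library. The part of such cells in the value of Cebpe was not tested. Cebpz, a CCAAT-binding protein outside the bZIP family, had 42.9 ± 1.86 CPM with vehicle and 42.8 ± 1.29 with esculetin. Ddit3, which encodes the stress-induced partner CHOP, had 4.35 ± 0.267 and 5.28 ± 1.01 CPM (log2 fold change 0.28, unadjusted p = 0.157), and it shares exon bases with Mars1 on the opposite strand.

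Of 21 other bZIP genes whose products dimerize or compete with C/EBP proteins, among them Atf4, Jun, Fos, Nfil3 and Dbp, 0 were called in either direction and 0 had an unadjusted p-value under 0.05, against 11.9% of all genes tested. Their log2 fold changes lay between -0.32 and 0.37. Atf4, the main partner of C/EBPγ in amino acid stress, had 76.0 ± 7.58 CPM with vehicle and 76.8 ± 9.86 CPM with esculetin.

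Genes that regulate C/EBP factors were called in 0 of 30 cases, with a median log2 fold change of -0.01, and 4 had an unadjusted p-value under 0.05, a share near the 11.9% of all genes tested. With libraries left out, 1 was called higher without vehicle replicate 2, 1 lower without vehicle replicate 1 and 2 lower without esculetin replicate 3. Il6ra, the receptor through which interleukin 6 induces C/EBPβ activity, had 68.8, 72.9 and 87.9 CPM with vehicle and 114, 97.8 and 90.7 CPM with esculetin. The groups of Il6ra did not overlap, as in 9.2% of all genes tested in this direction. Its log2 fold change by edgeR was 0.40 ± 0.11 (standard error), which is under 1.5-fold. Its unadjusted p-value was 0.00619 and its adjusted p-value 0.241. Trib1, a pseudokinase that brings C/EBPα to the COP1 ubiquitin ligase, had 46.2 ± 3.56 CPM with vehicle and 54.6 ± 5.20 CPM with esculetin (log2 fold change 0.24, unadjusted p = 0.0299). Socs3, a feedback inhibitor of cytokine signalling, and Nr3c1, the glucocorticoid receptor, had log2 fold changes of -0.55 and -0.17 with unadjusted p-values of 0.0401 and 0.0432. Stat3, which carries the interleukin 6 signal, had 90.6 ± 9.01 and 94.3 ± 10.5 CPM.

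Acute phase genes, many of which are textbook targets of C/EBPβ and C/EBPδ, had a median log2 fold change of 0.17 over the 26 of 27 genes tested. Of these, 3 were called higher and 0 lower, where 1.37% and 1.76% of all genes tested were. A positive log2 fold change was found in 19, compared with 6993 of 14433 genes tested. Hamp, which encodes the iron hormone hepcidin, had 289, 178 and 277 CPM with vehicle and 552, 298 and 437 CPM with esculetin (log2 fold change 0.79, unadjusted p = 0.00613). Mt1, a metallothionein, had 3.06, 4.73 and 4.67 CPM with vehicle and 35.2, 5.51 and 9.44 CPM with esculetin (log2 fold change 2.01, unadjusted p = 0.00655). Orm3, an orosomucoid, had 1.23, 2.88 and 3.43 CPM with vehicle and 9.27, 3.43 and 3.46 CPM with esculetin (log2 fold change 1.10, unadjusted p = 0.0354, all from edgeR's quasi-likelihood test). In all 3 genes esculetin replicate 1, the library with the most Cebpb and Cebpd, was the highest. Without that library 1 gene of the list was called higher, and the log2 fold changes of Hamp, Mt1 and Orm3 were 0.57, 0.85 and 0.46. Between 1 and 6 genes were called higher with 1 library left out. Orm3 also lost its call without vehicle replicate 1 (0.77) and without vehicle replicate 2 (1.22), with DESeq2 (1.10), with limma-voom (1.04) and with the replicate block (0.98). Mt1 lost its call with limma-voom (1.55, unadjusted p = 0.0526). Crp, C-reactive protein, also had an unadjusted p-value under 0.05, with a log2 fold change of 0.22. Orm3 belongs to a family of close paralogs, so its counts are uncertain.

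Hepatocyte genes listed for this comparison as targets of C/EBPα had log2 fold changes between -0.92 and 0.37, with a median of 0.07 over 24 genes. Whether C/EBPα acts on each of them was not tested. Of these, 0 were called higher and 2 were called lower, where 1.37% and 1.76% of all genes tested were. In each direction 2 had an unadjusted p-value under 0.05, where 6.53% of all genes tested did upwards and 5.32% downwards. Apoa2, an apolipoprotein of HDL, had the smallest p-value of the list, with 3780, 3470 and 3530 CPM in the vehicle and 4480, 4710 and 4760 CPM in the esculetin libraries (log2 fold change 0.37, unadjusted p = 0.000803), under the fold threshold. Fah, the last enzyme of tyrosine breakdown, was also higher in every esculetin library (log2 fold change 0.20, unadjusted p = 0.0202 by edgeR), as were 9.2% of all genes tested. G6pc1, the catalytic subunit of glucose-6-phosphatase, fell from 923, 599 and 478 CPM to 256, 437 and 362 CPM (log2 fold change -0.92, unadjusted p = 0.00357). Cyp7b1, the oxysterol hydroxylase of bile acid synthesis, fell from 270, 460 and 517 CPM to 258, 285 and 157 CPM (log2 fold change -0.83, unadjusted p = 0.00850, edgeR's quasi-likelihood test), with groups that overlapped in 1 vehicle library. Both were called lower in each of the 6 fits that left out 1 library. Like every direction here, these rest on the names of the columns.

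Of 11 genes of macrophage lipid uptake and handling, a list put together for this comparison around Cd36 and Nceh1, 0 were called in the liver, with log2 fold changes between -0.24 and 0.30. Cd36, a fatty acid and lipoprotein receptor, had 43.1, 36.5 and 44.2 CPM with vehicle and 41.9, 42.9 and 48.4 CPM with esculetin (log2 fold change 0.11, 95% interval -0.11 to 0.32, unadjusted p = 0.310). Nceh1, a cholesteryl ester hydrolase, had 30.2 ± 2.26 CPM with vehicle and 34.3 ± 9.26 CPM with esculetin (log2 fold change 0.18, 95% interval -0.18 to 0.55, unadjusted p = 0.295, edgeR's quasi-likelihood test). The interval of Cd36 leaves out a 1.5-fold change. The 12 macrophage and Kupffer cell markers summed to between 466 and 597 CPM in the vehicle and to between 474 and 498 CPM in the esculetin libraries, with 0 called. Of these markers 3 had a positive log2 fold change, and 3 were lower in every esculetin library, namely Cd68 (-0.37, unadjusted p = 0.0225), Csf1r (-0.15) and Timd4 (-0.24), while 0 were higher in every one (8.24% and 9.2% of all genes tested were separated in these directions). The part of these cells in the values above was not tested.

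Of 25 genes of the amino acid stress programme in which ATF4 and C/EBPγ take part, 22 were tested, with a median log2 fold change of 0.11. Among them 1 was called higher and 1 lower, where 1.37% and 1.76% of all genes tested were. With 1 library left out between 1 and 3 were called higher. Gdf15, a stress hormone, rose from 0.460 ± 0.0264 to 2.21 ± 0.490 CPM (log2 fold change 2.25, unadjusted p = 3.03e-05, adjusted p = 0.0551). Asns, asparagine synthetase, fell from 2.37 ± 0.803 to 0.929 ± 0.493 CPM (log2 fold change -1.35, unadjusted p = 0.00712, edgeR's quasi-likelihood test). Both are expressed at a low level.

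Glucocorticoid and fasting signals are also known inducers of Cebpb and Cebpd. Of 19 such genes 2 were called higher and 2 lower, where 1.37% and 1.76% of all genes tested were, and the median log2 fold change was 0.09. With 1 library left out between 2 and 4 were called higher, the 4 without vehicle replicate 3, and between 2 and 3 lower. Fkbp5, a chaperone that responds to glucocorticoids, rose from 29.6, 25.6 and 41.0 CPM to 76.6, 54.8 and 80.9 CPM (log2 fold change 1.14, unadjusted p = 0.000122), and Angptl4, an inhibitor of lipoprotein lipase, rose from 64.5 ± 5.81 to 124 ± 31.2 CPM (log2 fold change 0.94, unadjusted p = 0.000155). Sgk1, a kinase that also responds to glucocorticoids, fell from 42.5 ± 10.1 to 24.9 ± 4.61 CPM (log2 fold change -0.77, unadjusted p = 0.00200, edgeR's quasi-likelihood test), beside G6pc1. Members of this list were thus called in both directions.

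Immediate early genes, a class induced quickly by many stimuli, were called higher in 0 of 23 genes tested and lower in 1, with 1 higher and 3 lower at an unadjusted p-value under 0.05. Of all genes tested, 6.53% were higher and 5.32% lower at that p-value, and 1.37% and 1.76% were called. Dusp1, a phosphatase of MAP kinases that also stands in the glucocorticoid list, had the smallest p-value, with 35.9, 39.8 and 33.7 CPM in the vehicle and 25.8, 26.1 and 22.5 CPM in the esculetin libraries (log2 fold change -0.56, unadjusted p = 0.000219), under the fold threshold. Nr4a1, an early-response nuclear receptor, fell from 2.53 ± 1.42 to 0.855 ± 0.0831 CPM (log2 fold change -1.57, unadjusted p = 0.00549, edgeR's quasi-likelihood test), while the median of the list was 0.01. With 1 library left out, between 0 and 1 were called higher and between 1 and 3 lower. The summed level of the list was between 225 and 277 CPM in the vehicle and between 240 and 323 CPM in the esculetin libraries.

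Markers of other liver cell types were counted beside these lists, and 3.13% of all genes tested were called in either direction. Of 8 endothelial markers 0 were called, and 1 of 8 stellate cell and fibroblast markers, Des (desmin), was called higher with a log2 fold change of 0.69 (unadjusted p = 0.0114). The median of these 8 was -0.11 and 3 were positive, with Col1a1 at -0.37, Col3a1 at -0.28 and Pdgfrb at -0.24. Pdgfrb was lower in every esculetin library, as were 8.24% of all genes tested. Of 7 cholangiocyte markers 5 were tested and 1, Spp1 (osteopontin), was called lower with a log2 fold change of -0.75 (unadjusted p = 0.0174, edgeR's quasi-likelihood test). The other tested cholangiocyte markers had log2 fold changes of 0.63 (Krt7), 0.34 (Sox9), 0.24 (Krt19) and 0.06 (Epcam), none of them called, and Spp1 alone had 34.7 to 75.5 CPM with vehicle and 23.7 to 39.1 CPM with esculetin, most of the summed level. The call of Des was lost without esculetin replicate 2 (0.57), and that of Spp1 without vehicle replicate 3 (-0.47) and without esculetin replicate 2 (-0.55). The summed levels were 205 to 251 against 219 to 248 CPM for endothelium, 356 to 430 against 318 to 430 CPM for stellate cells, and 39.8 to 80.8 against 30.7 to 45.9 CPM for cholangiocytes (vehicle against esculetin). Of 8 lymphocyte markers 7 were tested, with sums of 3.36 to 4.83 against 3.46 to 5.88 CPM, and Cd79a was called higher from 0.272, 0.368 and 0.511 CPM to 1.31, 0.692 and 0.508 CPM. The other tested lymphocyte markers had log2 fold changes of -0.36 (Cd3g), -0.34 (Cd8a), -0.2 (Trac), 0 (Nkg7), 0.17 (Cd79b) and 0.31 (Ms4a1), none of them called. Of 6 adipocyte markers 2 were tested, with sums of 5.03 to 6.91 against 6.16 to 7.24 CPM that were mostly Lipe (log2 fold change -0.01), while Cfd was called higher from 0.613, 0.246 and 0 CPM to 1.12, 0.692 and 1.07 CPM, and Lep and Retn had 0 counts in every library. The part of these cells in the values of the C/EBP genes was not tested.

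**Figure D4:**
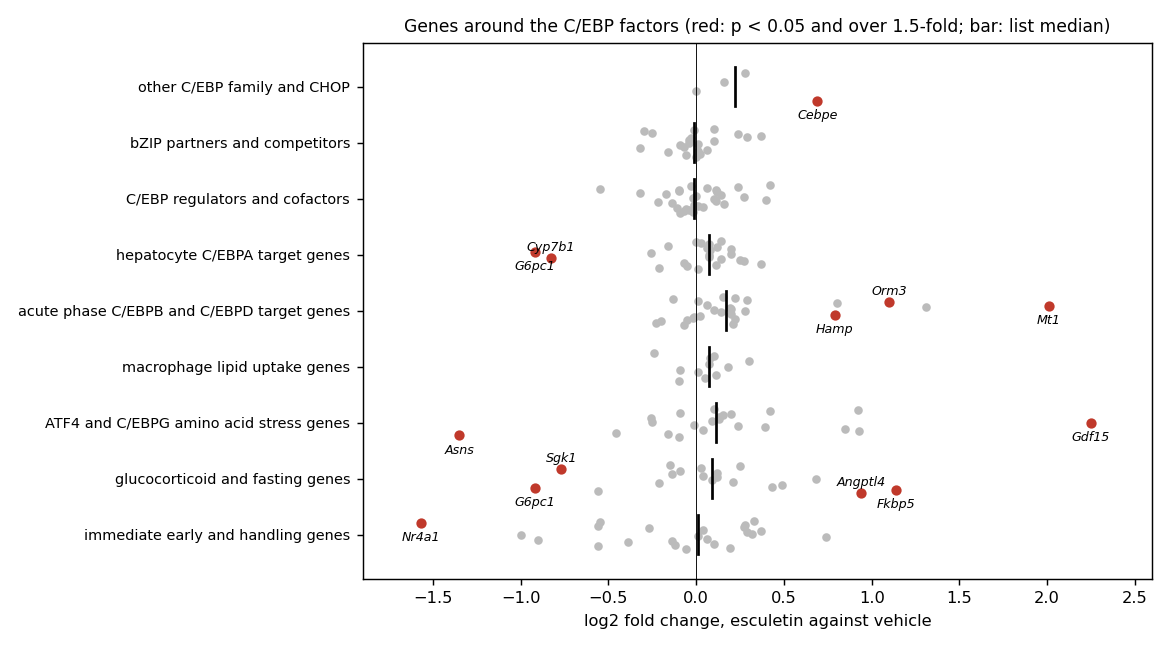
Log2 fold change (horizontal axis, esculetin against vehicle) of each tested gene in the lists around the C/EBP factors, with called genes in red and list medians as black bars. Medians lie between -0.01 and 0.22, and the called genes are spread over both directions, with Gdf15 at 2.25 and Nr4a1 at -1.57.

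The genes whose profile over the 6 libraries was most like that of each C/EBP gene were found among genes with a mean of at least 10 CPM, by the root mean square difference of log2 CPM after each gene was centred on its mean. For Cebpb these were Herpud1 (difference 0.0604), Zfp330 (0.109) and Serpinb9 (0.109), where the profile of Cebpb itself had a standard deviation of 0.392. Herpud1, a component of endoplasmic reticulum-associated degradation, had 400, 518 and 434 CPM with vehicle and 761, 630 and 575 CPM with esculetin, in the same order of libraries within each group as Cebpb. For Cebpd, with a standard deviation of 0.466, they were A2ml1 (0.105), Prg4 (0.141) and Actr6 (0.152). A2ml1, a relative of alpha-2-macroglobulin, had 12.0, 13.6 and 15.8 CPM with vehicle and 25.4, 16.3 and 19.6 CPM with esculetin. The profiles of Cebpa (standard deviation 0.113) and Cebpg (0.168) varied less. The genes nearest to Cebpa were Vipr1, Mepce and Lrrc58, and those nearest to Cebpg were 0610031O16Rik, Lpcat3 and Dsp. The 6 libraries fall into 2 groups, and both a similar group difference and similar deviations within the groups bring a gene near by this measure.

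**Figure D5:**
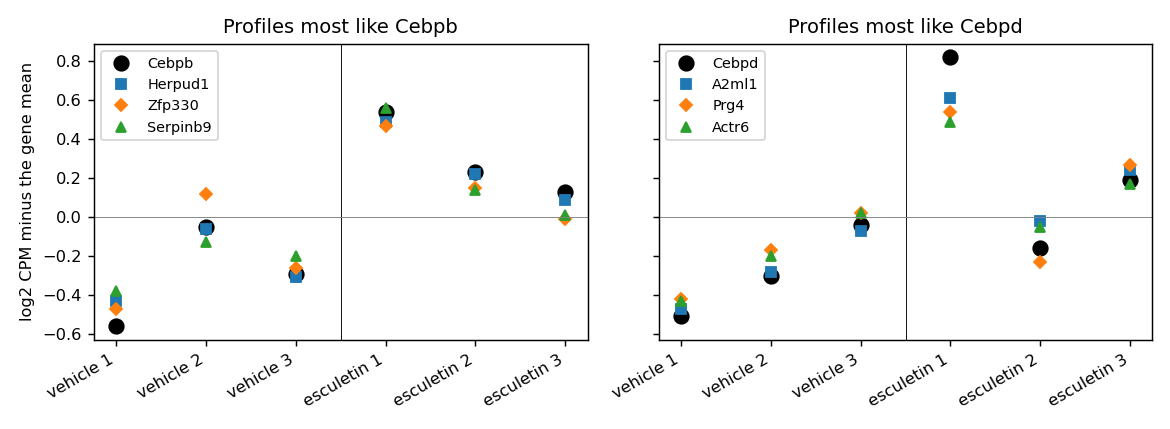
Log2 CPM minus the gene's mean (vertical axis) in each library for Cebpb (left, black) and Cebpd (right, black) with the 3 genes of the most similar profile. In both sets esculetin replicate 1 is the highest library, at 0.54 for Cebpb and 0.82 for Cebpd.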

How the data were processed

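RNA was sequenced from 6 liver libraries as 150-base read pairs on NEBNext Ultra libraries. Whole-number counts per gene, not normalized, were deposited by the authors, who used HISAT2 2.2.1 and featureCounts with GRCm39 as the reference (the submitters' processing notes also list mm10). Columns were matched to samples by name. Annotation release, strandedness and handling of reads shared between genes are not given in the sources used here. Gene names, coordinates and exon lengths came from GENCODE M39, which held 54749 of the 55357 gene identifiers, and promoter sequences from RefSeq (3 of 4 members matched).

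Counts were filtered with filterByExpr, scaled by TMM and fitted in R 4.3.3 with edgeR 4.0.16 (quasi-likelihood). Intervals use the moderated degrees of freedom. Replicates of a group differed by at least 24.2 in chi-square per gene, far above sampling noise. Ratios were compared with an exact permutation test. The alternatives used DESeq2 1.42.0, limma 3.58.1, other scalings, filters and folds, the replicate block and each library left out. The test was tested on simulated data.

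The members and gene lists were chosen with earlier results of these data known, so list counts are descriptions. Genes named singly were the members, 9 fixed genes, up to 4 called genes of each list with a mean of at least 1 CPM, and the 3 genes of most similar profile. Any further gene was picked with its values in view.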

Additional observations from a re-analysis of the deposited data

How the results depend on the processing

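Cebpa and Cebpg were not called in any of the 14 alternative fits, and the log2 fold change of Cebpb stayed positive in all of them. For Cebpb it was 0.57 with total counts, under the 1.5-fold threshold, and lay between 0.47 and 0.73 with 1 library left out, where 4 of 6 fits kept the call. For Cebpd it was 0.57 with limma-voom, with limma and a trend and with the replicate block, none of which kept the call, and between 0.30 and 0.82 with 1 library left out, where 3 of 6 fits kept it. Cebpa lay between -0.07 and 0.07 and Cebpg between -0.27 and -0.05. The adjusted p-value of Cebpb was 0.00984 with DESeq2 and 5.67e-05 without the low-count filter, and between 0.169 and 0.292 in the other fits with all libraries. The log2 difference in the ratio of Cebpb to Cebpa lay between 0.41 and 0.79 with 1 library left out and was 0.61 within replicate numbers. Instead of 452 called genes there were 776 when low counts were kept, 1711 by p-value alone, 217 over 2-fold, 399 with the replicate block and 411 to 588 with 1 library left out. Instead of 6 genes past an adjusted 0.05 there were 193 with DESeq2, 477 when low counts were kept, 15 with the replicate block and 2 to 45 with 1 library left out. The cause of these changes was not tested.

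The replicate numbers refer to different mice. The correlations of the deviations of same-numbered libraries were -0.104, -0.0398 and 0.0203, which gives no pairing. Under the replicate block the log2 fold changes were 0.60 for Cebpb (unadjusted p = 0.00499), -0.01 for Cebpa and -0.13 for Cebpg. Among the 4 members Cebpd had the fewest counts, with 82 in its lowest library.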

Other observations

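Most tested acute phase genes had their highest value in esculetin replicate 1, the library with the most Cebpb and Cebpd, and some did not. The genes outside the calls that are named here were picked with their values in view. Among abundant ones, C3 (6370 CPM), Hpx (5020 CPM) and Hp (3990 CPM) were highest in esculetin replicate 1. Cp (1540 against 1380 CPM in esculetin replicate 1) and Orm1 (965 against 930 CPM) were highest in vehicle replicate 3. Cfb was highest in vehicle replicate 2 (8.75 CPM, against 6.28 in esculetin replicate 1), Saa2 in vehicle replicate 3 (50.4 against 46.6 CPM) and Il1rn in esculetin replicate 3 (2.6 against 1.62 CPM). Lcn2, which encodes the siderophore-binding protein lipocalin 2, had 1.57, 3.41 and 8.57 CPM with vehicle and 20.3, 5.30 and 7.73 CPM with esculetin (log2 fold change 1.31, unadjusted p = 0.0527). Orm2, an orosomucoid with close paralogs, had 3.81, 7.46 and 10.4 CPM with vehicle and 19.6, 9.46 and 8.72 CPM with esculetin (log2 fold change 0.80, unadjusted p = 0.0596, edgeR's quasi-likelihood test). Both groups overlapped in each gene. Mt2, a metallothionein too low to be tested, had 8 counts in all, 7 of them in esculetin replicate 1.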
